A study of Rattus norvegicus with 10 samples.

Results

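The epithelial Na+ channel (ENaC) and the genes of the mineralocorticoid response were followed in the cortex of kidneys from PCK rats, 5 of them male and 5 female. Rows of the deposited table were taken by symbol, which gave 10 of 32545 genes for 9 symbols, since *Tsc22d3* is listed under 2 identifiers. All 10 rows had reads in all 10 libraries and passed the filter on low values. PCK rats (PCK/CrljCrl-Pkhd1pck/Crl) carry a mutation in *Pkhd1* and model autosomal recessive polycystic kidney disease, with cysts that arise mainly from the collecting duct. Both groups carried the mutation and were littermates of 2 litters, no treatment is named for either, and no RNA of rats without cysts was compared. Age was 10 to 12 weeks in the methods and 12 to 14 weeks in the design text of the deposited series. The tissue was cortex in the methods and kidney in the sample labels. The comparison addresses how gene expression in these kidneys differs by sex.

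ENaC is the apical Na+ channel of the aldosterone-sensitive distal nephron and is built of α, β and γ subunits. Aldosterone binds the mineralocorticoid receptor, which raises transcription of the α subunit and of the kinase SGK1. SGK1 phosphorylates the ubiquitin ligase NEDD4-2, which otherwise binds ENaC and removes it from the membrane. The enzyme 11β-HSD2 inactivates corticosterone and so keeps this glucocorticoid off the receptor.

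Libraries held 13912569 to 20285911 reads on genes. Between 155 and 8537 of these fell on each of the 9 rows other than the second *Tsc22d3* row, which had 16 to 42. Values are FPKM, in which fragments are divided by the length of the gene and a size of the library. The size implied by the values was not the number of reads on genes. It was 15435670 against 14387669 in male 1 and 17691443 against 19556707 in female 4. The median over genes of the ratio to the geometric mean of all libraries was 1.008 in each library. The values were thus already on this median-ratio scale, and scaling by total reads was an alternative. Female 2 stood apart: mitochondrial genes took 26.8% of its reads against 14.3% to 19.1% in the other libraries, and 5 urothelial markers summed to 12.8 FPKM against at most 0.763 FPKM in the other libraries. The litter of each rat was not analysed here. Limma was run on 17631 genes, of which 109 (0.618%) had higher and 123 (0.698%) lower expression in females at both thresholds, an adjusted p up to 0.05 and an absolute log2 fold change from 1.

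The α subunit had the largest log2 fold change of the 10 rows. *Scnn1a* (ENSRNOG00000019368, Rnor_6.0 chromosome 4, 157836912 to 157860049, plus strand) was at 26.7, 15.6, 17.9, 15.2 and 14.9 FPKM in males 1 to 5 and at 24.5, 33.8, 27.2, 27.9 and 23.2 FPKM in females 1 to 5. Every female lay above 4 of the 5 males, and male 1 lay within the range of the females. The means were 18.1 ± 4.96 and 27.3 ± 4.10 FPKM (SD, n = 5 each), 1.51 times as much in females (exact permutation test, two-sided, p = 0.0238). The smallest p that this test allows with 5 rats in each group is 0.00794. The limma log2 fold change was 0.62 (standard error 0.16, 95% confidence interval 0.26 to 0.98), with an adjusted p of 0.0869 over all genes. Without male 1, the log2 fold change of *Scnn1a* was 0.77 and its limma adjusted p was 0.0088, and this was the only one of the 10 fits leaving out a rat in which any of the 10 rows passed.

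The β and γ subunits are encoded side by side on chromosome 1, where *Scnn1g* (ENSRNOG00000017842, 191704311 to 191738268, plus strand) lies 91.3 kb before *Scnn1b* (ENSRNOG00000030981, 191829555 to 191884298, plus strand). The 250 bases before the start of each gene are shown because these neighbours varied together between rats, and those before 1 of 3 starts of *Sgk1* because its difference had the other sign. They are RefSeq windows of build GRCr8, 5′ to 3′ on the strand of the gene, and 5 of the 9 symbols were matched in that table. Capitals mark GC boxes, GGGCGG on either strand, and TATA boxes, TATAAA on the strand of the gene.
Scnn1g, chr1:185735975-185736224, plus strand: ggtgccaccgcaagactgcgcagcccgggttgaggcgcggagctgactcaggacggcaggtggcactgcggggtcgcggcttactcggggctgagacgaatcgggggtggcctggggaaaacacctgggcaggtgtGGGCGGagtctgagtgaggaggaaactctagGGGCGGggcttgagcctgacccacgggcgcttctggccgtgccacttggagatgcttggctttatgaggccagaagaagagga
Scnn1b, chr1:185861126-185861375, plus strand: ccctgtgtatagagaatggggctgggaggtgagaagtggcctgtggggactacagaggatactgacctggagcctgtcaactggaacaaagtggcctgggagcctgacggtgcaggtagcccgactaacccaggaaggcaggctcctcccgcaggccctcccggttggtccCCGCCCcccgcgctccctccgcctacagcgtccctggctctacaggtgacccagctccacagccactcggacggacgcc
Sgk1, chr1:24804832-24805081, minus strand: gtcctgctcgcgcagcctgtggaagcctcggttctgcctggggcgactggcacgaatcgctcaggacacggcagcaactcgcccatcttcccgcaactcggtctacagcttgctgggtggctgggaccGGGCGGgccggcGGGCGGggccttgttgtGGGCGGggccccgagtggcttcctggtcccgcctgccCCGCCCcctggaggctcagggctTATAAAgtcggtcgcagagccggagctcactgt
The *Scnn1g* and *Scnn1b* windows had the same share of G and C, 65.6%, with 2 GC boxes in the first and 1 in the second and no TATA box in either. A GC box was found in 30.5% of the 33469 windows of this length and a TATA box in 8.06%. The half-site of the hormone response element was searched as AGAACA on either strand. It was found in 17.5% of all windows and in none of those of the matched members, which says only that these letters do not occur there.

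*Scnn1b* was at 32.9, 20.3, 26.0, 20.2 and 23.5 FPKM in males 1 to 5 and at 27.1, 39.3, 36.8, 32.4 and 27.9 FPKM in females 1 to 5. As for the α subunit, male 1 was the one male within the range of the females. The means were 24.6 ± 5.25 and 32.7 ± 5.36 FPKM (exact permutation test, p = 0.0476), and the limma log2 fold change was 0.42 (95% confidence interval 0.08 to 0.76, adjusted p = 0.206). The exact p lay between 0.0794 and 0.103 without any one of males 2, 3, 4 and 5 or females 2, 3 and 4, and it was 0.0873 with scaling by total reads. *Cog7* lies on the other strand over 48.9% of the span of *Scnn1b*, so reads of the pair may not be separable, and *Cog7* itself had a mean of 15.4 FPKM in the male and 16.4 FPKM in the female rats (p = 0.484 by exact permutation).

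*Scnn1g* was at 25.1, 14.7, 19.0, 14.4 and 14.8 FPKM in males 1 to 5 and at 18.8, 31.0, 21.98, 20.9 and 19.8 FPKM in females 1 to 5. Male 1 again stood above the other males, and female 2 stood above the other females. The means were 17.6 ± 4.62 and 22.5 ± 4.90 FPKM, a difference that did not pass the test (p = 0.135 by exact permutation). The limma log2 fold change was 0.37 (95% confidence interval −0.03 to 0.76, adjusted p = 0.359). The difference of 4.91 FPKM in *Scnn1g* became 6.80 FPKM without male 1 (exact p = 0.0238) and 2.79 FPKM without female 2 (exact p = 0.286).

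**Figure D1:**
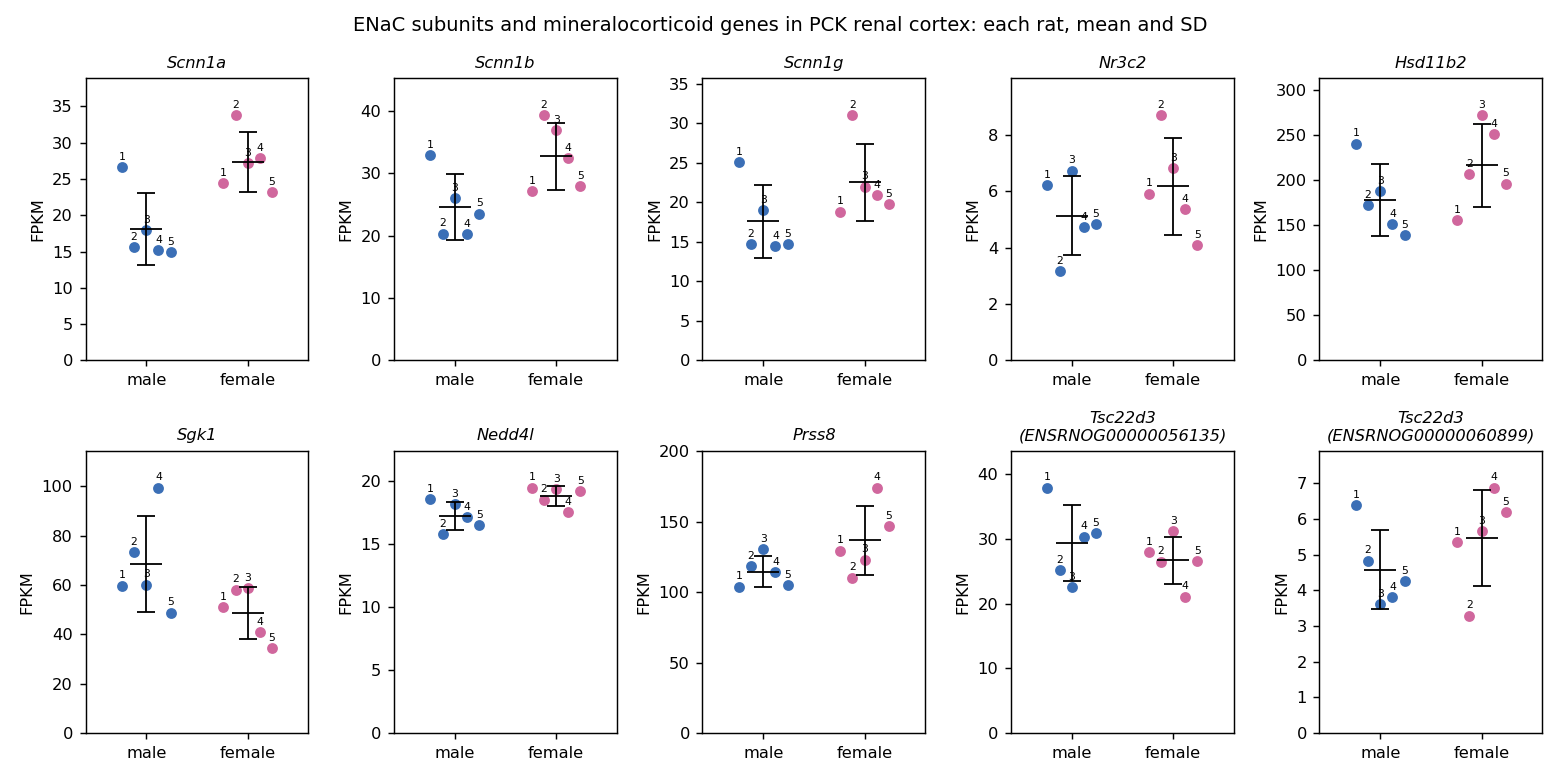
Expression of the 10 rows in each rat, as FPKM on linear axes that start at 0, with males in blue and females in pink. Numbers name the rat within its sex, the horizontal bar is the mean and the whiskers are the SD (n = 5). Males and females overlap in every panel, and male 1 lies above the other males for all 3 *Scnn1* genes.

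The subunits differed in proportion, in ratios that were chosen after the values were seen. Within each rat, the ratio of *Scnn1g* to *Scnn1a* was 0.941, 0.938, 1.06, 0.948 and 0.989 in males 1 to 5 and 0.769, 0.917, 0.808, 0.749 and 0.852 in females 1 to 5. Every female lay below every male, male 1 and female 2 included. The difference in the mean log2 ratio was −0.25 (p = 0.00794 by exact permutation, and 0.0317 after adjustment for the 8 ratios compared), and it lay between −0.30 and −0.22 with each rat left out. A ratio within a library does not depend on how libraries are scaled. The ratio of *Scnn1b* to *Scnn1a* was 1.38 ± 0.136 in males and 1.20 ± 0.0940 in females (p = 0.0397 by exact permutation of the log2 ratio, and 0.0794 after adjustment). The ratio of *Scnn1b* to *Scnn1g* was 1.41 ± 0.107 and 1.47 ± 0.154 (exact permutation test, p = 0.524). The α subunit thus made up 28.1% to 31.5% of the summed FPKM of the 3 subunits in males and 31.6% to 34.8% in females. That sum was 60.2 ± 14.6 FPKM for the males and 82.5 ± 13.8 FPKM for the females.

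**Figure D2:**
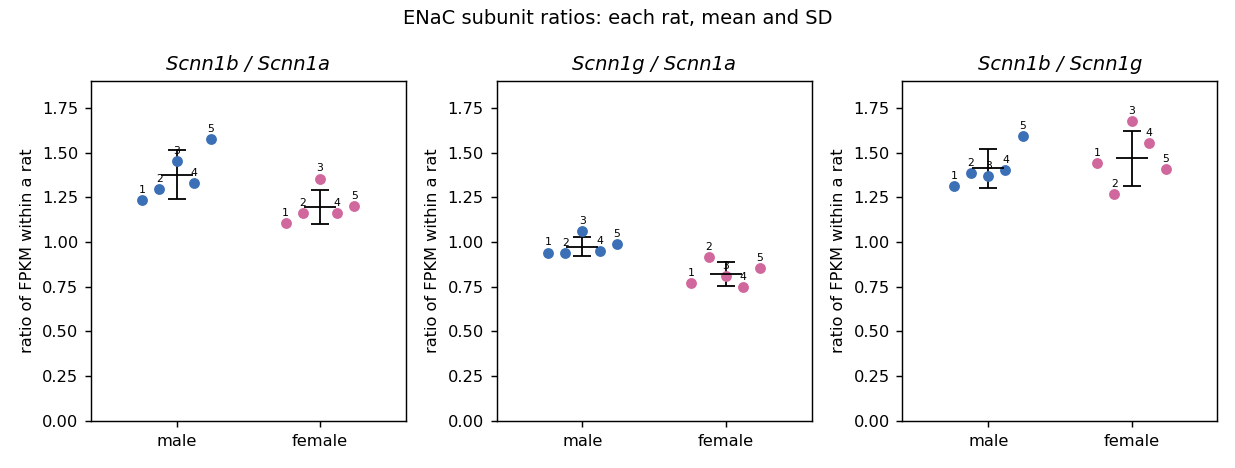
Ratios of FPKM between ENaC subunits within each rat (unitless, linear axes from 0), with the mean and SD of each sex (n = 5) and rats numbered within their sex. The ratio of *Scnn1g* to *Scnn1a* is 0.938 to 1.06 in males and 0.749 to 0.917 in females, with no overlap, while the ratio of *Scnn1b* to *Scnn1g* overlaps.

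For the receptor and the enzyme that guards it, neither test passed. *Nr3c2* (ENSRNOG00000034007, chromosome 19, 34448289 to 34752695), which encodes the mineralocorticoid receptor, was at 6.21, 3.17, 6.72, 4.73 and 4.82 FPKM in males 1 to 5 and at 5.91, 8.69, 6.80, 5.37 and 4.08 FPKM in females 1 to 5. The sexes overlapped widely, with a log2 fold change of 0.26 (95% confidence interval −0.24 to 0.77, exact permutation p = 0.341, limma adjusted p = 0.644). It was 0.11 without male 2, 0.13 without female 2 and 0.40 without female 5. *Hsd11b2* (ENSRNOG00000017084, chromosome 19, 37476083 to 37481326), which encodes 11β-HSD2, was at 240, 172, 188, 151 and 139 FPKM in males 1 to 5 and at 155, 206, 272, 251 and 196 FPKM in females 1 to 5. Its log2 fold change was 0.28 (95% confidence interval −0.12 to 0.67, exact permutation p = 0.190, limma adjusted p = 0.498), and 0.19 to 0.39 with each rat left out. Both intervals include a difference of 1.5-fold in favour of females. The ratio of *Hsd11b2* to *Nr3c2* was 36.3 ± 10.9 in males and 36.9 ± 11.3 in females (exact permutation test of the log2 ratio, p = 0.960).

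*Sgk1* had a difference of the other sign. This gene (ENSRNOG00000011815, chromosome 1, 24185435 to 24302298) was at 59.8, 73.4, 60.2, 99.5 and 48.8 FPKM in males 1 to 5 and at 51.0, 58.1, 58.8, 41.0 and 34.4 FPKM in females 1 to 5. Only male 5 lay within the range of the females, and male 4 stood highest. The means were 68.3 ± 19.5 and 48.7 ± 10.7 FPKM (exact permutation test, p = 0.0794), with a log2 fold change of −0.48 (95% confidence interval −0.92 to −0.03, limma adjusted p = 0.284). The exact p was 0.00794 without male 5 and 0.0317 with scaling by total reads. Without male 4 the difference was −11.9 FPKM in place of −19.7 FPKM (exact p = 0.151), and leaving out female 5 gave an exact p of 0.183. The ratio of *Sgk1* to *Scnn1a* was 2.24 to 6.54 in males and 1.47 to 2.16 in females, and so did not overlap (p = 0.00794 by exact permutation of the log2 ratio, and 0.0317 after adjustment for the 8 ratios). This ratio was chosen after the values were seen and sets the row with the largest fall against the row with the largest rise. The adjustment does not account for that choice, so its p-value is a description only.

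*Sgk1* is also an immediate early gene. All 9 immediate early genes tested had a log2 fold change below 0, with a median log2 fold change of −0.76 against −0.01 over all genes tested, and for 3 of the 9 the exact test gave p of 0.05 or less. None passed the limma adjusted p. *Atf3*, a stress-induced transcription factor, stood at −1.09 on the log2 scale (limma adjusted p = 0.224), and *Btg2*, an inhibitor of proliferation, −1.02 (adjusted p = 0.163). With each rat left out, *Atf3* was at −1.27 to −0.69 and *Btg2* at −1.28 to −0.80. Summed over the list, male 4 was highest at 712 FPKM and females 4 and 5 were lowest at 206 and 264 FPKM, which are also the rats with the highest and the lowest *Sgk1*. Female 2 went against this order, with a list sum of 563 FPKM, above 3 males, and *Sgk1* below 4 males. The part of these genes' shared variation in the *Sgk1* difference was not tested.

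*Nedd4l* (ENSRNOG00000017610, chromosome 18, 60392376 to 60719720), which encodes NEDD4-2, varied least between rats. It was at 18.5, 15.8, 18.1, 17.1 and 16.5 FPKM in males 1 to 5 and at 19.5, 18.5, 19.3, 17.5 and 19.2 FPKM in females 1 to 5. Its means of 17.2 ± 1.13 and 18.8 ± 0.811 FPKM differed by 9.16% (exact permutation test, p = 0.0476), with a log2 fold change of 0.13 (95% confidence interval −0.03 to 0.28, limma adjusted p = 0.429). The difference depended on the scaling: with total reads it was 0.674 FPKM in place of 1.58 FPKM (exact permutation p = 0.556). The exact p lay between 0.0635 and 0.0873 without any one of males 2, 4 and 5 or females 1, 2, 3 and 5. The ratio of *Sgk1* to *Nedd4l* was 3.996 ± 1.21 in males and 2.59 ± 0.549 in females (p = 0.0317 by exact permutation of the log2 ratio, and 0.0794 after adjustment for the 8 ratios).

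*Prss8* (ENSRNOG00000019616, chromosome 1, 199372519 to 199377035) encodes prostasin, the protease that activates ENaC by cleavage. It was at 104, 119, 131, 114 and 105 FPKM in males 1 to 5 and at 130, 110, 123, 174 and 147 FPKM in females 1 to 5. Females 4 and 5 lay above all males and the other 3 females lay among them. The log2 fold change was 0.24 (95% confidence interval −0.03 to 0.52, limma adjusted p = 0.378, exact permutation p = 0.103). The difference of 22.4 FPKM became 28.99 FPKM without female 2 (exact p = 0.0317) and 13.0 FPKM without female 4 (exact p = 0.190). *Kat8* overlaps 405 bp of *Prss8* on the other strand.

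*Tsc22d3* encodes GILZ, a transcriptional target of mineralocorticoid and glucocorticoid receptors. Its identifiers lie 54.2 kb apart on the minus strand of chromosome X. The row ENSRNOG00000056135 (111884295 to 111887906) was at 37.9, 25.2, 22.5, 30.4 and 30.9 FPKM in males 1 to 5 and at 28.0, 26.5, 31.2, 21.1 and 26.6 FPKM in females 1 to 5 (exact permutation p = 0.444, log2 fold change −0.13, 95% confidence interval −0.45 to 0.19). That value was −0.03 without male 1, −0.05 without female 4 and −0.22 without male 3. The row ENSRNOG00000060899 (111942102 to 111942749) is 345 bp long and was at between 3.62 and 6.38 FPKM in males and between 3.29 and 6.88 FPKM in females (exact permutation p = 0.278). The sexes overlapped in both rows, and the split of reads between them is uncertain.

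None of the 10 rows passed both limma thresholds, where 1.32% of all genes tested did (0.618% higher and 0.698% lower in females), and none passed the adjusted p alone, where 2.40% did. At an unadjusted limma p under 0.05 there were 3, *Scnn1a*, *Scnn1b* and *Sgk1*, against 15.7% of all genes (7.67% higher and 8.07% lower). By the exact permutation test, 3 had a p of at most 0.05, *Scnn1a*, *Scnn1b* and *Nedd4l*, all higher in females, against 14.8% of all genes in both directions, 7.45% in this one and 7.38% in the other. In no row were males and females fully separated, where 5.10% of all genes were. Limma-voom on the recovered reads called none of the 10 either. The median log2 fold change of the 10 rows was 0.25 against −0.01 over all genes, with 8 above 0 and 2 below.

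**Figure D3:**
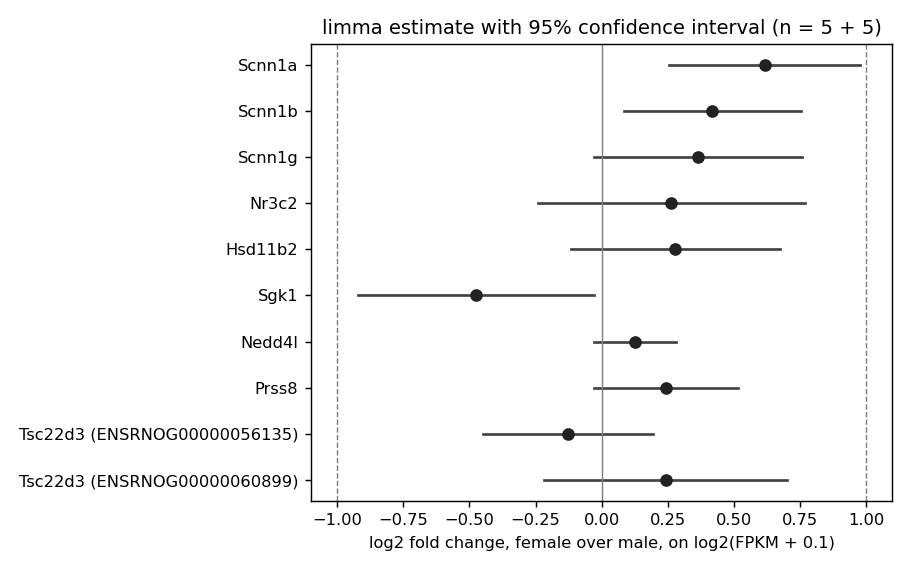
Log2 fold change of females over males for the 10 rows by limma on log2(FPKM + 0.1), with the 95% confidence interval as a line (n = 5 in each sex). Dashed lines mark a log2 fold change of 1 in either direction, and the intervals of *Scnn1a*, *Scnn1b* and *Sgk1* leave out 0.

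FPKM is per annotated length, so genes may be ordered by FPKM, which may differ from the order of their transcript numbers. The sign-flip test asks only whether the order of 2 neighbours repeats across rats. *Hsd11b2* was the most abundant at 197 ± 45.2 FPKM over all 10 rats, followed by *Prss8* at 126 ± 21.5 and *Sgk1* at 58.5 ± 18.1 FPKM, and each lay above the next gene in 10 of 10 rats (exact sign-flip test, p = 0.00195, and 0.00439 adjusted over the 9 pairs of neighbours). Next came *Scnn1b* at 28.6 and *Tsc22d3* (ENSRNOG00000056135) at 28.0 FPKM, a pair not separated over all rats (p = 0.912, exact sign-flip test), with *Scnn1b* above in 1 of 5 males and 4 of 5 females. *Tsc22d3* lay above *Scnn1a*, at 22.7 FPKM, in 5 of 5 males and 3 of 5 females (p = 0.0664 over all rats, exact sign-flip test). *Scnn1a* lay above *Scnn1g*, at 20.04 FPKM, in 9 of 10 rats (exact sign-flip test, p = 0.00781, adjusted 0.0141). *Scnn1g* and *Nedd4l*, at 17.99 FPKM, were not separated either (p = 0.270, exact sign-flip test), with *Scnn1g* above in 2 of 5 males and 4 of 5 females. *Nr3c2* was low at 5.65 FPKM, a level close to that of the second *Tsc22d3* row at 5.03 FPKM (p = 0.465, exact sign-flip test).

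The ENaC subunits varied together between rats of the same sex. Taking each rat's deviation from the mean of its sex over 10 rats, Pearson's r was 0.95 for *Scnn1a* with *Scnn1g* (exact permutation within sex, p = 0.00153), 0.90 for *Scnn1a* with *Scnn1b* (p = 0.0016, exact) and 0.91 for *Scnn1b* with *Scnn1g* (p = 6.94e-05, exact, the smallest it can give). Of the 36 pairs among the 9 symbols, 3 had an adjusted p of at most 0.05, and these were the 3 pairs of subunits (exact test adjusted over the 36 pairs, p = 0.0192, 0.0192 and 0.0025). Spearman's rho on ranks within each sex was 1 for *Scnn1b* with *Scnn1g* (exact adjusted p = 0.005) and 0.75 for either with *Scnn1a* (exact p = 0.0336, adjusted p = 0.202). Without male 1 and female 2, the rats farthest from the median, r was 0.82, 0.76 and 0.83 in the same order. In all, 26 of the 36 pairs had an r above 0 and 8 had an unadjusted exact p of at most 0.05. *Sgk1* had an r of 0.04 with *Scnn1a* (exact p = 0.914, rho 0.25, exact p = 0.544).

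**Figure D4:**
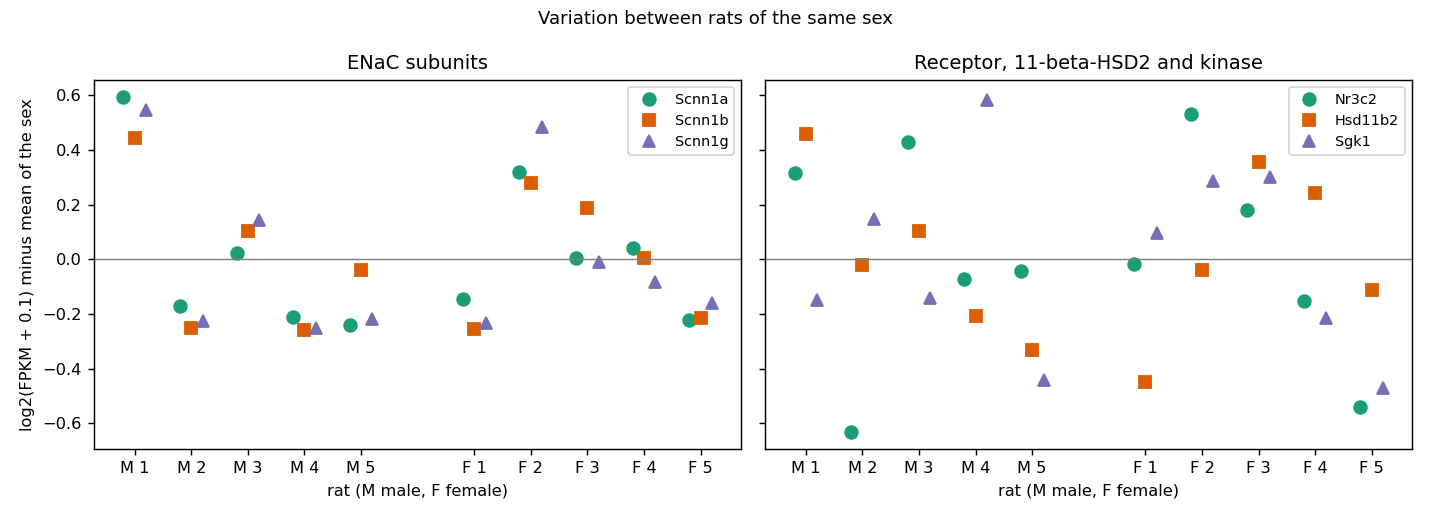
Deviation of log2(FPKM + 0.1) from the mean of the sex for each rat, with the ENaC subunits at left and *Nr3c2*, *Hsd11b2* and *Sgk1* at right. The 3 subunits lie high together in male 1 and female 2, whereas *Sgk1* lies lowest in male 5 and female 5 and highest in male 4.

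Among 11944 named genes at 1 FPKM or more on average, the most like *Scnn1a* in these deviations were *Scnn1g*, *Flt1* (r = 0.93) and *Rasd2* (0.93). Those most like *Scnn1b* were *Podxl* (0.97), *Nphs1* (0.93) and *Bmp6* (0.93), and those most like *Scnn1g* were *Tdrd3* (0.96), *Muc1* (0.96) and *Scnn1a*. With 10 rats and this many genes, values of this size are a description only. *Podxl* and *Nphs1* are genes of podocytes and *Flt1* is an endothelial receptor gene. The 5 podocyte markers summed to 166 FPKM in male 1, the highest of the males (125 to 166), and to 197 FPKM in female 2, the highest of the females (117 to 197). The part of glomerular content in the shared variation of the subunits was not tested.

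In bulk cortex, a higher share of distal nephron cells and more RNA per cell cannot be told apart. Markers of principal cells, the main site of ENaC, summed to between 209.6 and 284 FPKM per male and between 239 and 316 FPKM per female, and none of the 10 was at 0 in any library. Of the 10 markers, 9 had a log2 fold change above 0 and 1 below, with a median of 0.40. By the exact test 3 were higher and 1 lower, and 1 passed the limma adjusted p. This was *Avpr2*, the vasopressin V2 receptor gene (log2 fold change 0.44, limma adjusted p = 0.0469). *Aqp2*, the water channel gene, had 0.57 (adjusted p = 0.122) and *Fxyd4*, a regulator of the Na+ pump, 0.44 (adjusted p = 0.350). *Elf3*, a transcription factor gene named after its values were seen, was the one below 0 (−0.36, exact permutation p = 0.00794, limma adjusted p = 0.223). Intercalated cell markers were also higher in females: for all 9 the exact permutation test gave p of 0.05 or less, with a median log2 fold change of 0.57, and *Atp6v0d2* and *Rhcg* passed the limma adjusted p (0.0351 and 0.0221). *Calb1*, the calbindin gene of the connecting tubule, differed by 0.998 on the log2 scale (limma adjusted p = 0.0226), and the other 3 markers of that segment had an exact p over 0.05. With rats left out in turn, *Avpr2* kept its call only without male 1 or female 2 and *Atp6v0d2* only without male 5, female 1 or female 2. *Rhcg* lost it without male 2, 3 or 4 or female 3, and *Calb1* without male 2, 3 or 4 or female 3 or 4, with adjusted p of at most 0.125 in all these fits. With all rats kept, *Avpr2* also lost its call with total reads (adjusted p = 0.149), without the filter (0.0536) and without the variance trend (0.0787), and *Atp6v0d2* with total reads (0.0576), quantile normalization (0.0799) and without the trend (0.0656).

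Set against the mean log2 level of the 9 principal cell markers with at least 1 FPKM, the members differed in another way. That mean was 3.76 ± 0.129 in males and 4.03 ± 0.0910 in females, itself higher in females by 0.28 (exact permutation test, p = 0.0238). Relative to it, *Scnn1a* was higher in females by 0.34 on the log2 scale (exact permutation test, p = 0.0476), and this was no longer so against *Aqp2* alone (0.05, exact p = 0.786). Its exact p was between 0.0556 and 0.0873 without any one of males 2, 3, 4 and 5 or females 1, 2 and 4. *Scnn1b* and *Scnn1g* differed by 0.14 and 0.09 (exact permutation p = 0.222 and 0.556). *Sgk1* was lower in females by this measure, at 1.54 against 2.30 above the markers (a difference of −0.75, exact permutation p = 0.00794), and so was the longer *Tsc22d3* row (−0.40, exact p = 0.0238). The higher marker mean of females is part of both differences. Not set against the markers, the log2 fold changes were −0.48 and −0.13 (exact permutation p = 0.0794 and 0.444). These p-values are unadjusted.

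Other genes of the pathway were read from lists by role. Of 14 rows for steroid receptors and hormone handling, 1 passed the limma adjusted p. *Hsd11b1*, which encodes the enzyme that regenerates corticosterone, was lower in females at 57.5 ± 15.7 against 107 ± 19.8 FPKM (log2 fold change −0.91, limma adjusted p = 0.0250, up to 0.0716 without any one of males 2, 4 and 5 or females 1, 3 and 5), while *Fkbp4*, a receptor co-chaperone, had a log2 fold change of 0.26 (adjusted p = 0.126). The ratio of *Nr3c1*, the glucocorticoid receptor gene summed over 2 identifiers, to *Nr3c2* was 7.76 ± 2.71 in males and 6.01 ± 1.37 in females (exact permutation test of the log2 ratio, p = 0.214). Of 20 genes of SGK1 and NEDD4-2 signalling and ENaC trafficking, none passed, 2 were higher and 3 lower by the exact test, and the median log2 fold change was 0.00. *Usp10*, a deubiquitinase gene, had 0.28 (limma adjusted p = 0.204) and *Uchl3*, another deubiquitinase gene, −0.44 (adjusted p = 0.931), a sign that turned with a smaller pseudocount and without any one of males 2 and 5 or females 3 and 5. *Nedd4*, named after its values were seen, had −0.12 with no overlap (exact permutation p = 0.00794, limma adjusted p = 0.389).

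Of the 13 tested genes for proteases that act on ENaC and for their inhibitors, none passed the limma adjusted p and 2 were higher by the exact test, with a median log2 fold change of 0.10. *Pcsk6*, a proprotein convertase gene, averaged 0.949 ± 0.369 FPKM over the males and 1.80 ± 0.346 FPKM over the females (log2 fold change 0.90, limma adjusted p = 0.0886). Among 19 tested genes of the distal nephron that respond to aldosterone, 3 were higher by the limma adjusted p and none lower, with a median log2 fold change of 0.16. These were *Kcnj1*, the ROMK K+ channel gene (0.64, adjusted p = 0.00263), *Wnk1*, a kinase gene of the thiazide-sensitive pathway (0.54, adjusted p = 0.0422), and *Stk39*, which encodes the kinase SPAK (0.53, adjusted p = 0.0179). *Kcnj1* kept its call with each rat left out, *Stk39* lost it without male 3 (adjusted p = 0.0558), and *Wnk1* kept it only without male 1, female 1 or female 5 (adjusted p of up to 0.111 in the other fits). With all rats kept, *Wnk1* also lost its call with total reads (adjusted p = 0.0962), quantile normalization (0.107), without the filter (0.0528) and without the variance trend (0.0752). *Lcn2* and *Rasd1* had the largest log2 fold changes of that list, −1.08 and −0.78 (limma adjusted p = 0.433 and 0.289). With each rat left out, *Lcn2* was at −1.46 to −0.50 and *Rasd1* at −1.04 to −0.60.

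Genes that respond to glucocorticoids did not move one way. Of 16 tested rows, 6 had a log2 fold change above 0 and 10 below, with a median of −0.11. By the exact test 3 were higher and 4 lower, against 14.8% of all genes in both directions, and 1 passed the limma adjusted p. This was *Klf15*, a transcription factor gene, with a mean of 22.6 ± 2.44 FPKM in the males and 38.3 ± 8.26 FPKM in the females (log2 fold change 0.74, adjusted p = 0.0202, up to 0.0586 without any one of males 3, 4 and 5 or females 3 and 4). *Dusp1*, a phosphatase gene that is also an immediate early gene, had −0.96 (limma adjusted p = 0.0885), and 1 of 2 rows of *Mt1*, a metallothionein gene, had 1.05 (adjusted p = 0.0896). The other, more abundant *Mt1* row went the same way, with 0.71 (limma adjusted p = 0.108). *Fkbp5* and *Per1*, named after their values were seen, had −0.01 and −0.13 (limma adjusted p = 0.985 and 0.877).

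Markers of other cells were read as well. All 8 leukocyte markers had a log2 fold change below 0 (median −0.47) and none passed the limma adjusted p or the exact test, with *Cd79b* at −1.19 and *Adgre1* at −0.73. With each rat left out, *Cd79b* was at −1.73 to −0.71 and *Adgre1* at −0.88 to −0.53. Of 7 fibroblast and smooth muscle markers 6 were below 0 (median −0.57) and 3 were lower by the exact test, with *Col1a2* at −1.42 (limma adjusted p = 0.0777) and *Col1a1* at −0.87 (adjusted p = 0.0821). Medians of the other lists were 0.47 for the distal convoluted tubule, 0.23 for the connecting tubule, 0.15 for the thick ascending limb, 0.18 for the proximal tubule, 0.27 for podocytes and 0.03 for endothelium. Of 5 thick ascending limb markers 4 were above 0, with 1 higher and 1 lower by the exact test. *Ptger3* was lower in females (−0.62, limma adjusted p = 0.0435), and *Umod* had 0.35. Of 8 proximal markers 5 were above 0, with 1 higher and 2 lower by the exact test. *Cubn* was higher (0.72, limma adjusted p = 0.0467), and *Aqp1* had −0.56 (exact permutation p = 0.0317), or −0.66 to −0.35 with each rat left out. *Ptger3* kept its call only without female 1 or 2 and *Cubn* only without male 4 or female 2, with adjusted p of up to 0.0990 and 0.122 in the other fits. With all rats kept, both also lost it without the filter (0.0558 and 0.0626) and without the variance trend (0.0759 and 0.0787), and *Cubn* with quantile normalization (0.0516) and total reads (0.0822). Urothelial markers had a median of 1.14. Without female 2, where those markers were highest, the exact p of *Scnn1a* was 0.0317 and its mean difference 7.63 FPKM, against 9.25 FPKM with all rats. The part of cell composition in the differences of the ENaC genes was not tested.

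**Figure D5:**
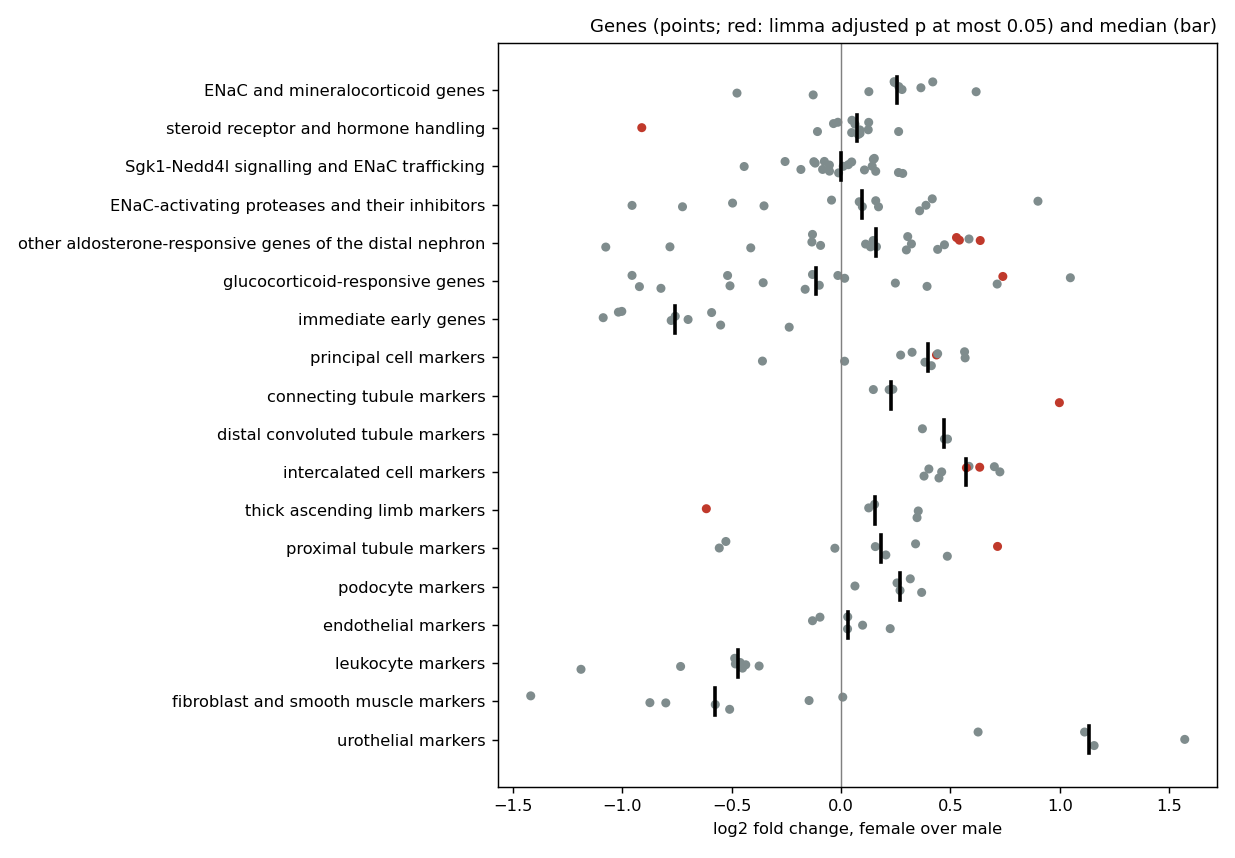
Log2 fold change of females over males for each tested gene of each list (points), with genes at a limma adjusted p of at most 0.05 in red and the list median as a black bar. The ENaC and mineralocorticoid genes have a median of 0.25, the intercalated cell markers lie entirely above 0 and the immediate early genes entirely below.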

How the data were processed

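Messenger RNA of renal cortex was sequenced from 5 male and 5 female PCK rats. Samples were grouped by the sex in their titles. Novogene mapped the reads with HISAT2 to Ensembl Rnor_6.0, and the authors deposited FPKM for 32545 genes in 1 table that also lists each gene's length. The submitters' processing notes also name fastp, StringTie 1.3.3b and featureCounts 1.5.0-p3, with HISAT2 at version 2.0.5. Whether the counting used strand is not given in the sources used here.

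Each FPKM was divided by the FPKM of 1 read at the gene's length, which gave whole reads (within 0.01) for 100% of the values above 0. The 17631 genes averaging 0.1 FPKM or more were fitted with limma (eBayes with a trend) on log2(FPKM + 0.1), with Benjamini-Hochberg adjustment over all of them. The thresholds were an adjusted p up to 0.05 together with an absolute log2 fold change from 1. Single values had an exact permutation test, two-sided. Neighbours in the order of levels had an exact sign-flip test of their log2 difference within each rat. Pairs of genes were compared by the correlation of their deviations from the mean of their sex, with exact permutation within sex. The limma procedure and the exact test were tested on simulated data. Fits used limma 3.58.1 under R 4.3.3. Other steps used scipy 1.17.1, numpy 2.4.6 and pandas 2.3.3 under Python 3.11.15.

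The 9 genes and the lists of pathway and marker genes were chosen with earlier results of these data known. Named beside the 9 genes are list genes with a limma adjusted p of at most 0.05, the 2 genes of each list with the largest fold change among those averaging 1 FPKM or more, and the 3 genes most like each ENaC subunit. 1 gene that this rule names is not reported here. Other genes were named after their values were seen. Ratios between genes were added after the values were seen. The alternatives were other pseudocounts, filters, scalings and variance settings, the replicate number as a block, limma-voom applied to those whole reads, and omission of each library in turn. *Klk1* and *Ier2* of the lists were not analysed here, as no row was matched to them by symbol.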

Additional observations from a re-analysis of the deposited data

Results flagged for a closer look

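In 2 of 20 groups of 5 rats, 1 rat lay far from the others by Dixon's test at the 95% level, which chance does in about 1 in 20 groups. *Scnn1a* was at 26.7 FPKM in male 1, where the next highest male was at 17.9 FPKM, a gap of 0.745 of the whole range. *Scnn1g* was at 31.0 FPKM in female 2, where the next highest female was at 21.98 FPKM, a gap of 0.741 of the range. Both rats were also the highest of their sex for all 3 subunits and for the summed podocyte markers.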

How the results depend on the processing

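Over the 11 alternatives that kept all rats, none of the 10 rows changed its side of the limma threshold or its direction. Among them, median-ratio scaling divided every library by the same factor (1.008) and so left the fit almost unchanged by construction. The genes past both limma thresholds, 109 higher and 123 lower, became 65 and 72 with a pseudocount of 1 and 223 and 201 by adjusted p alone, and 82 to 114 and 89 to 148 with 1 rat left out. Rats with the same number did not deviate together (r of −0.0975 to 0.0708, with 1 of 5 males closest to its own number), so they share only a number. With the replicate number as a block, limma gave 89 and 87 genes, and of the 11 list genes called, *Kcnj1* and *Hsd11b1* passed (adjusted p of 0.0969 to 0.170 for the other 9). The exact sign-flip test of such a block cannot go below p = 0.0625, and there *Scnn1a* (9.25 FPKM, p = 0.125), *Scnn1b* (8.12 FPKM, p = 0.188) and *Nedd4l* (1.58 FPKM, p = 0.0625) did not pass. In the same block, the log2 differences from the principal cell markers of *Scnn1a* (0.34), *Sgk1* (−0.75) and *Tsc22d3* (−0.40) did not pass either. Nor did the log2 ratios of *Scnn1g* and *Scnn1b* to *Scnn1a* and of *Sgk1* to *Scnn1a* and to *Nedd4l* (exact sign-flip p = 0.0625 for each). With total reads as the scale, *Scnn1b* (6.46 FPKM) and *Nedd4l* (0.674 FPKM) lost the exact call and *Sgk1* (−22.5 FPKM) gained it. Against *Aqp2* alone, *Scnn1a* (0.0503) lost its call, *Nedd4l* (−0.44) gained one, *Hsd11b2* (−0.29, exact p = 0.0317) changed sign and gained one, and *Scnn1b* (−0.15) and *Scnn1g* (−0.20) changed sign. *Uchl3* was at 0.53 with a pseudocount of 0.01. With each rat left out, the log2 fold change of *Scnn1a* was 0.54 to 0.77. The differences tested exactly were then 0.413 to 1.56 FPKM for *Nr3c2*, 24.1 to 53.6 for *Hsd11b2*, −4.43 to −0.574 for the longer *Tsc22d3* row, 6.48 to 10.2 FPKM for *Scnn1b*, 2.79 to 6.80 for *Scnn1g*, −24.5 to −11.9 for *Sgk1*, 1.22 to 1.91 for *Nedd4l* and 13.0 to 28.99 for *Prss8*. Relative to the markers they were 0.28 to 0.43 for *Scnn1a*, −0.0063 to 0.17 for *Scnn1g*, −0.15 to 0.12 for *Nr3c2*, −0.0816 to 0.0861 for *Hsd11b2*, −0.19 to −0.11 for *Nedd4l*, −0.14 to 0.0672 for *Prss8* and −0.14 to 0.16 for the shorter *Tsc22d3* row. The log2 ratio of *Hsd11b2* to *Nr3c2* was −0.10 to 0.17, *Uchl3* −1.25 to 0.55 and *S100g* −0.0068 to 0.46. The cause of these changes was not tested. Low depth limits the shorter *Tsc22d3* row, with 16 to 42 reads.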
